A study of Mus musculus with 96 samples.

Results

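The replication-dependent histone genes are the clustered genes that supply the core histones H2A, H2B, H3 and H4 and the linker histone H1 to newly made DNA. They were taken here as every protein-coding gene whose mouse symbol begins with Hist1h, Hist2h, Hist3h or Hist4h, which gave 67 of the 50944 genes listed in all libraries: 6 H1, 18 H2A, 18 H2B, 12 H3 and 13 H4 genes. In GRCm38 coordinates, 54 of them lie in the Hist1 cluster (chr13:21715763-23934851), 10 in Hist2 (chr3:96219865-96270132), 2 in Hist3 (chr11:58948920-58956830) and 1 in Hist4 (chr6:136801553-136804415). A further 3 pseudogenes of the clusters were left out.

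Ribosomal-RNA-depleted total RNA was sequenced from 4 kinds of cell of adult male C57Bl/6J mouse hearts, namely CMs (cardiomyocytes), ECs (endothelial cells), FBs (fibroblasts) and HCs (hematopoietic cells). Hearts were taken at Day 1, 3, 7, 14 and 28 after an infarction made by tying off the left anterior descending artery for good, and from unoperated hearts (Day 0). Each of the 24 groups had 4 libraries, each made from material of 3 mice, and the cell types of a day came from the same animals, so that they are not independent of each other. CMs were enriched by low-speed centrifugation, HCs with anti-CD45 beads, ECs with anti-CD144 beads, and FBs by attachment to plastic for 40 minutes, so each isolate can hold other cells. Unoperated hearts were the only controls, which means that surgery and infarction cannot be told apart. The study calls the libraries of a group biological replicates in one place and technical replicates in another, and the p-values below measure the spread between these pools.

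Replication-dependent histone genes typically have no introns, although some annotated models of the members, such as that of Hist1h2bc, are spliced, and in dividing cells their mRNAs end without a poly(A) tail. In place of the tail stands a short stem-loop, which is bound by the stem-loop binding protein SLBP. The precursor is cut just past the stem-loop with the help of the U7 particle. These mRNAs build up in S phase and decay at its end, so that histone supply follows DNA synthesis. Some of the genes also give longer, polyadenylated RNA in cells that have left the cycle. The library kit adds a poly(A) tail to fragmented RNA in the tube, so RNAs with and without a natural tail could both be read.

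The stem-loop is shown because it defines this class of mRNA. A search of the GENCODE transcript models for 6 stem bases, 4 loop bases and 6 stem bases found it in 46 of the 67 genes, and in 1.35% of 58797 protein-coding transcripts. The models held it for 4 H1, 11 H2A, 10 H2B, 9 H3 and 12 H4 genes. In 34 genes the first stem arm read GGCTCT, and in 12 H4 genes it read GGCCCT or GGTCCT. The stretches below run 5′ to 3′ on the strand of the gene, with the stem-loop in capitals and 5 bases on either side, for a linker histone and members of each core type that carry the Day 3 values given later.
Hist1h1c: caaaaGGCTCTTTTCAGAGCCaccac
Hist1h2ae: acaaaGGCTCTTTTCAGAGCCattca
Hist1h2bg: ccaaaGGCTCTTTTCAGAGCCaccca
Hist1h3c: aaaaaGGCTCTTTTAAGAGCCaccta
Hist1h4a: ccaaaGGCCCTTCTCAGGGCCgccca
Hist1h4c: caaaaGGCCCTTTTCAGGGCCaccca
These genes lie at chr13:23738808-23740367 (Hist1h1c, plus strand), chr13:23570517-23571220 (Hist1h2ae, minus), chr13:23571396-23572013 (Hist1h2bg, plus), chr13:23744973-23745602 (Hist1h3c, minus), chr13:23760692-23761230 (Hist1h4a, minus) and chr13:23697635-23698454 (Hist1h4c, minus). All H1, H2A, H2B and H3 stem-loops found had the same stem arms and differed in the loop bases, while the H4 stems carried other pairs.

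The promoters are shown because genes of one histone type share promoter motifs. RefSeq start sites (GRCm38.p6) were found for 61 members, and the window ran over 300 bases, 250 before and 50 after the start, searched on both strands. The octamer ATTTGCAT, a binding motif of the OCT factors, was in 7 of 18 H2A and 6 of 16 H2B promoters and in no H1, H3 or H4 promoter, against 1.74% of all 32817 promoters. CCAAT was in every H1, H2A, H2B and H3 promoter found, in 3 of 12 H4 promoters, and in 37.4% of all promoters. TATAAA was in 34 of 61 members, against 13.6% of all promoters. AAACACA, known as the H1 box, was in 4 of 5 H1 promoters, 2 of 18 H2A, 2 of 16 H2B and no H3 or H4 promoter, against 7.19% of all promoters. A match is a run of letters and says nothing of binding in these cells. The stretches below are 150 bases each, from chr13:21780626-21780775 (Hist1h1b, minus strand), chr13:23738657-23738806 (Hist1h1c, plus) and chr13:23571250-23571399 (Hist1h2bg, plus), written 5′ to 3′ with the motifs of either strand in capitals. Hist1h2bg and Hist1h2ae face away from each other across the last of these stretches, which is therefore the promoter of an H2B and an H2A gene at once.
Hist1h1b: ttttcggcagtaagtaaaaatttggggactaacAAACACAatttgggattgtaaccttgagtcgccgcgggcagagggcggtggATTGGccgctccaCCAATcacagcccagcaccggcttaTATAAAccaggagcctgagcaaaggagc
Hist1h1c: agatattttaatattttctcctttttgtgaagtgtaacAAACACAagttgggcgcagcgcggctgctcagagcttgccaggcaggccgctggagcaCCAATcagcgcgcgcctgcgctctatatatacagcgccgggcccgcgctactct
Hist1h2bg: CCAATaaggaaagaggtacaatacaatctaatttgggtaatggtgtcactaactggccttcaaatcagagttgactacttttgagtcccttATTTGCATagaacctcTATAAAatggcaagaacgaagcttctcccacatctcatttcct

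Members resemble each other, which limits how far reads can be given to a single gene. Of the 31-base words of a member, a median of 58.5% also occurred in another gene, and 40 of the 67 members shared more than 50% of theirs. The H1 genes stood apart, with a median of 3.73% and a highest value of 34.7%. Values of single H2A, H2B, H3 and H4 genes rest in part on how the quantifier divided shared reads. Hist2h2aa2 and Hist1h2aa had no reads in the 96 libraries, the testis gene Hist1h2ba had 1 read, Hist2h3c1 had 9 and Hist1h3h 19.1, and the testis linker histone Hist1h1t had 262 reads over 65 libraries. After the filter on low counts, 28 members could be tested in CMs, 56 in ECs, 54 in FBs and 57 in HCs, and 10 were tested in no cell type. The filter read all days of a cell type, so a member with next to no reads at Day 0 could pass through later days. Such members stay in the counts of tested and called members and in the medians below.

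Libraries held 2664338 to 55758471 estimated reads, with 2.83% to 68.2% on ribosomal RNA genes, and 768 to 53861 reads on the histone genes. CPM below is a gene's estimated reads per 1000000 reads of the library outside ribosomal RNA genes, without TMM scaling, whereas fold changes come from an edgeR quasi-likelihood fit of the estimated counts with TMM scaling and Benjamini-Hochberg adjustment over all genes tested. Genes with an adjusted p below 0.05 count as called, and "rose" and "fell" are used only of called genes. The cell type markers of the study were highest in their own isolate, with CM markers at 6149 to 14110 CPM in CMs, EC markers at 3455 to 5618 CPM in ECs, FB markers at 644 to 2249 CPM in FBs and HC markers at 902 to 1987 CPM in HCs. CM markers also reached 2522 CPM in ECs and 2939 CPM in HCs. In 8 libraries a set of transcripts that includes Capn12 was high (13.6 to 109 CPM of Capn12, against 0 to 3.64 CPM in the other 88). They were replicates 2 and 4 of HC Day 28, replicate 4 of FB Day 28, replicates 2 and 3 of FB Day 3, replicate 3 of EC Day 28, and replicates 1 and 2 of EC Day 0. FB Day 3 replicates 2 and 3 also stood apart in CM markers (449 and 318 CPM, against 13.4 and 18.3 CPM in replicates 1 and 4). These 2 libraries were shallow, at 2.66e+06 and 3.51e+06 estimated reads, with 35.6% and 35.2% on ribosomal RNA genes. Replicates 1 and 4 held 2.91e+07 and 1.85e+07 estimated reads. In replicates 2 and 3, 7 members held next to no reads, although replicates 1 and 4 held 10 or more reads of each. The part of depth in this was not tested. The study left out 2 FB Day 3 libraries and 1 HC Day 28 library as outliers without naming them, and all were used here. Whether the 2 FB libraries are the shallow ones cannot be told.

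On means over all libraries, the summed level of all 67 genes was highest at Day 3 in ECs and FBs, and at Day 7 in HCs. The order of Days 3, 7 and 14 in HCs depended on single libraries, given below. At Day 3 the EC libraries held 852, 674, 901 and 809 CPM, against 241, 197, 281 and 216 CPM at Day 0. FB libraries held 745, 886, 815 and 931 CPM at Day 3, against 203, 191, 173 and 173 CPM at Day 0. The groups do not overlap in either cell type, with means of 3.46 and 4.56 times Day 0. HC libraries held 825, 2525, 1011 and 845 CPM at Day 7, against 373, 421, 531 and 418 CPM at Day 0. Replicate 2 at Day 7 was far above the others and also held 473 CPM of T and NK cell genes, against 40.3 to 90.4 CPM in the other Day 7 libraries, and without it the HC Day 7 mean was 894 ± 102 CPM (SD, n = 3), close to the Day 14 mean of 898 ± 187 CPM (SD, n = 4). At Day 3 HC libraries held 1108, 769, 794 and 562 CPM, and without replicate 4 the HC Day 3 mean was 890 ± 189 CPM (SD, n = 3). In that replicate the H2B, H3 and H4 sums (76.7, 19.8 and 28.0 CPM) lay below every Day 0 library. Its H1 and H2A sums (256 and 181 CPM) lay above every Day 0 library. CM libraries held 189, 227, 223 and 228 CPM at Day 3, against 155, 192, 118 and 147 CPM at Day 0, and these overlap. Changes of a sum in bulk RNA cannot separate more RNA per cell from a larger share of cells that make it.

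Deposited TPM values gave another picture of the sums in FBs. Summed TPM at Day 3 were 5.04 times Day 0 in ECs, 2.26 times in FBs, 2.12 times in HCs and 1.67 times in CMs, and at Day 7 they were 4.42 times Day 0 in HCs. Without FB Day 3 replicate 1 the FB value was 1.46 times, and without HC Day 7 replicate 2 the HC Day 7 value was 3.12 times. The FB Day 28 sum was 0.57 times Day 0 in TPM, and 0.98 times in CPM. In these files 44.7% to 94.1% of a library's TPM sat on entries with an effective length under 100 bases, and the effective length of a member differed up to 8.05 times between groups (Hist1h4h). CPM and fitted counts are therefore used for the members below.

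**Figure D1:**
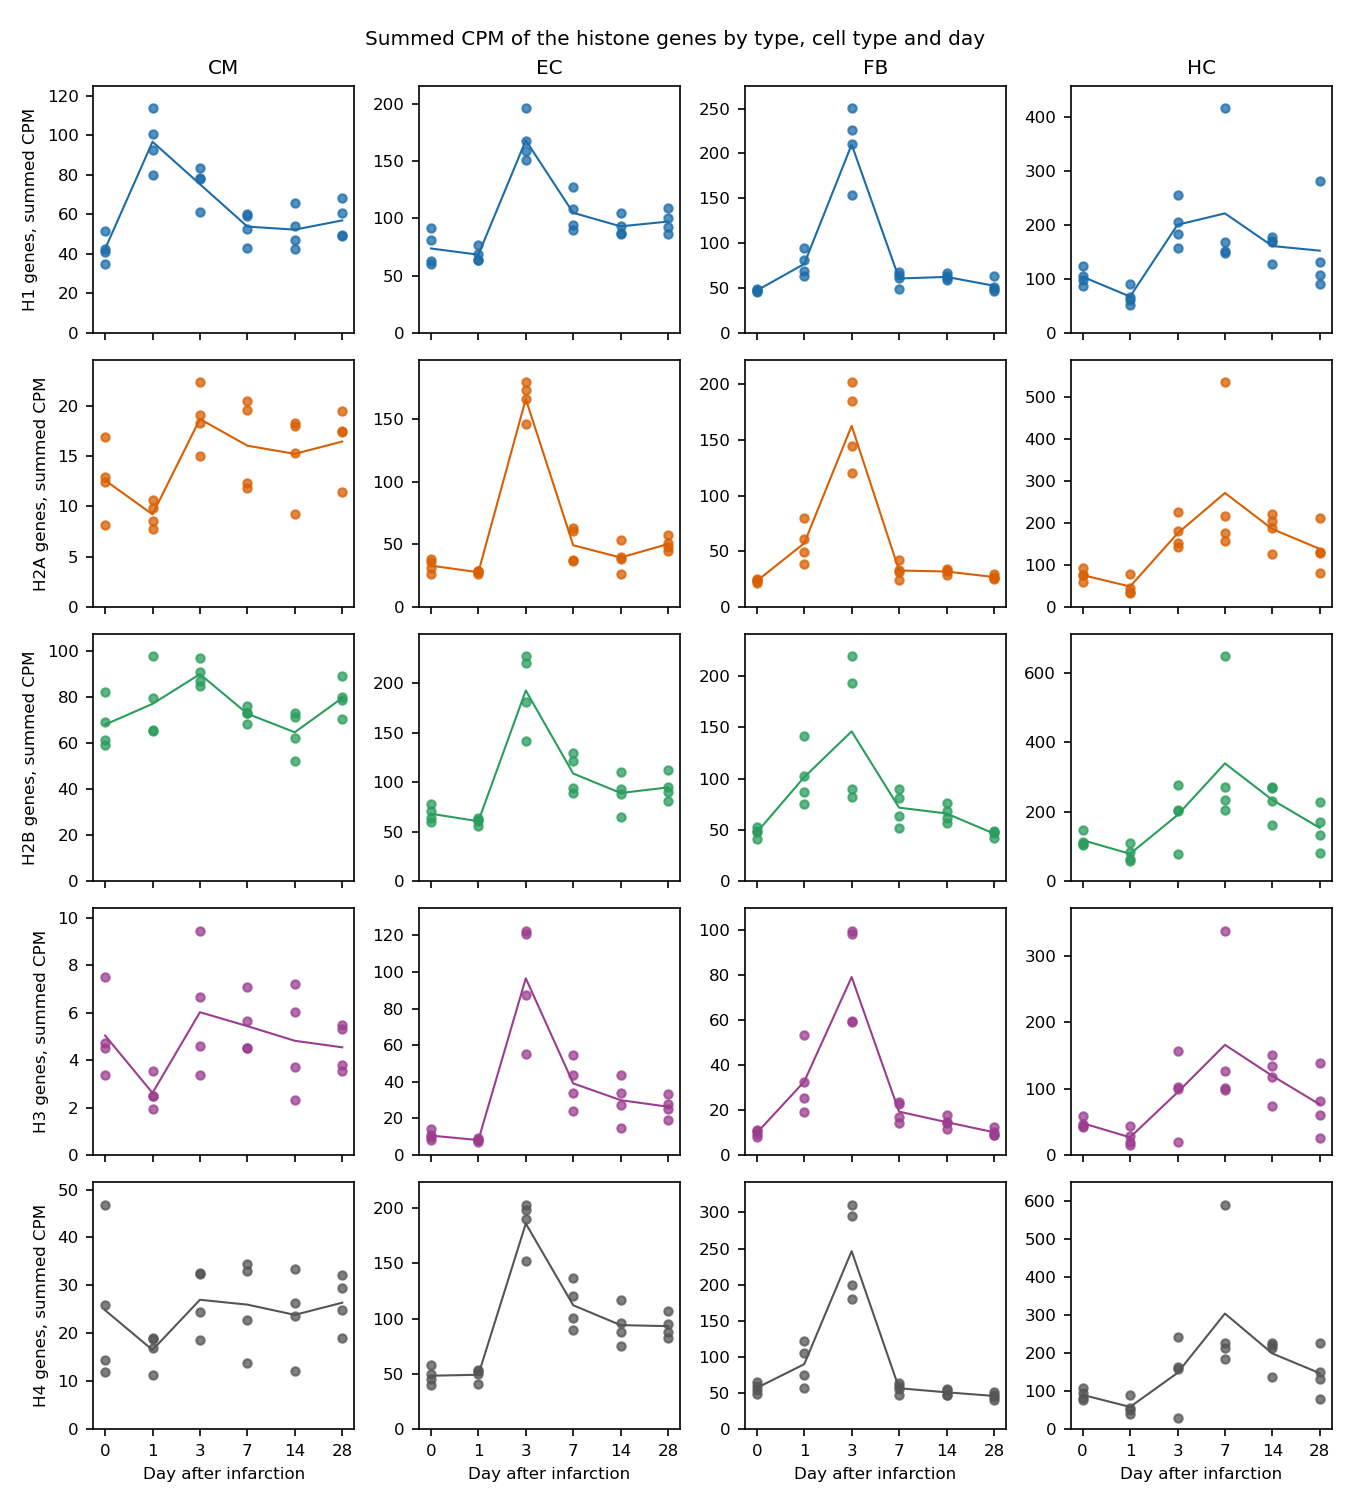
Summed CPM of the members of each histone type (rows) in the 4 cell types (columns) by day after infarction, with each library as a point, the mean as a line, and axes that start at 0 and differ between panels. In ECs and FBs all 5 types are highest at Day 3, in HCs the Day 7 mean is highest and replicate 2 lies far above the rest.

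The types did not move by the same factor. In ECs at Day 3 the sum of the H3 genes was 96.5 ± 31.8 CPM, against 10.6 ± 2.54 CPM at Day 0 (SD, n = 4 each), which is 9.08 times Day 0. The H2A sum was 5.02 times, H4 3.85 times, H2B 2.83 times Day 0, and the H1 sum was 168 CPM, against 73.7 CPM. In FBs the H3 sum was 8.04 times Day 0, H2A 6.96, H1 4.44, H4 4.32 and H2B 3.07 times. Without FB Day 3 replicates 2 and 3 these were 10.1 (H3), 6.89 (H2A), 3.84 (H1), 3.33 (H4) and 4.35 (H2B) times, so that the order of H2B against H1 and H4 turned over. The FB H2B libraries fell into 2 levels at Day 3, with 194 and 219 CPM in replicates 1 and 4 and 81.6 and 89.8 CPM in replicates 2 and 3, against 41.0 to 52.5 CPM at Day 0. The H4 sum split the other way, with 180 and 200 CPM in replicates 1 and 4 and 311 and 295 CPM in replicates 2 and 3, against 49.1 to 65.7 CPM at Day 0. In HCs at Day 7 the sums were 2.13 (H1), 3.57 (H2A), 2.88 (H2B), 3.45 (H3) and 3.38 (H4) times Day 0, and without Day 7 replicate 2 they were 1.51, 2.42, 2.01, 2.26 and 2.32 times in the same order of types. In CMs the H1 sum was 1.77 times Day 0 at Day 3.

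At Day 3 in ECs, 45 of 56 tested members rose (23.2% of all genes tested rose) and 2 fell (22.3% fell), with a median log2 fold change of 2.73. The tested members and the median include 2 genes with 3 or fewer reads in every Day 0 library, named below. By type, 4 of 5 H1 genes, 10 of 12 H2A, 11 of 17 H2B, 9 of 9 H3 and 11 of 13 H4 genes rose. The members that fell were Hist2h2be and Hist3h2a, and the Hist3h2a call was lost (log2 fold change -0.21 to -0.29) without replicate 1 or 2 of Day 0 or replicate 1 or 2 of Day 3. The count was 46 without the 8 libraries, of which 45 rose, and limma on log2(TPM + 1) called 28, all of which rose, with Hist3h2a at 0.04. In 45 members the Day 3 and Day 0 libraries did not overlap, but the share of all genes without overlap was not counted. Alongside, mural cell genes were lower (1343 CPM at Day 3, against 3272 CPM at Day 0) and CM markers were lower (1063 against 2106 CPM), and their part in the result was not tested.

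Among EC linker histones, Hist1h1b, which encodes H1.5, read 33.8, 25.8, 28.2 and 26.2 CPM at Day 3, against 2.30, 2.06, 5.64 and 1.86 CPM at Day 0. The groups do not overlap, and the log2 fold change was 3.16 ± 0.44 (SE, adjusted p = 8.8e-06 by edgeR). Hist1h1a, encoding H1.1, rose by 3.00 ± 0.34. Hist1h1e, the H1.4 gene, rose by 1.30 ± 0.22, with 57.1 to 68.4 CPM at Day 3 against 15.0 to 34.6 CPM at Day 0. Hist1h1c, the H1.2 gene, overlapped between the groups and was not called, at 53.5 ± 11.7 CPM at Day 3, against 41.7 ± 5.11 CPM at Day 0 (SD, n = 4 each).

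Core histone genes differed among themselves. Hist1h2ae, an H2A gene, read 60.8, 77.5, 66.9 and 85.0 CPM in ECs at Day 3, against 4.54, 2.92, 7.32 and 3.29 CPM at Day 0, a log2 fold change of 3.90 ± 0.50 (adjusted p = 2.95e-06 by edgeR). Every Day 3 library was above every Day 0 library. Its neighbour across the shared promoter, Hist1h2bg, read 43.6, 19.6, 44.8 and 35.7 CPM, against 2.69, 1.73, 4.59 and 2.92 CPM, with a change of 3.47 ± 0.40. Hist1h3b, an H3 gene, read 13.8, 3.33, 11.9 and 8.88 CPM at Day 3, against 0.161, 0.336, 0.824 and 0.257 CPM at Day 0, with a change of 4.41 ± 0.76. Replicate 2 was the lowest of the Day 3 libraries for Hist1h2bg and Hist1h3b. Hist1h3c rose by 3.66 ± 0.54, Hist1h4a, an H4 gene, by 2.60 ± 0.25, and Hist1h4d, another, by 1.87 ± 0.14 (adjusted p = 2.2e-09). Hist1h2ak and Hist1h2ap had 3 or fewer reads in every EC Day 0 library, so no fold is given for them.

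At Day 3 in FBs, 49 of 54 members rose and no member fell, against 25.8% and 23.3% of all genes, with a median log2 fold change of 3.28. The tested members and the median include 3 genes with 3 or fewer reads in every Day 0 library, named below. All 5 H1 genes, 11 of 12 H2A, 14 of 15 H2B, 8 of 9 H3 and 11 of 13 H4 genes rose. Without the 8 libraries 52 were called. On log2(TPM + 1), where the median of all genes was -1.17, limma called 16, of which 15 rose and 1 fell, and the values of Hist1h1c, Hist1h2bc, Hist1h3f, Hist1h4c, Hist1h4h, Hist1h4n, Hist2h2bb and Hist3h2a turned below 0. The groups of libraries did not overlap in 32 members, fewer than were called, and replicates 2 and 3 read low in several. Here too the share of all genes without overlap was not counted. FB markers were lower for all 4 genes tested, and CM markers were higher for all 4. Without Day 3 replicates 2 and 3, however, CM markers summed to a mean of 15.9 CPM, against 33.3 CPM at Day 0. Monocyte and macrophage genes summed to 52.9 CPM at Day 3, against 7.67 CPM at Day 0. The part of these shifts in the result was not tested.

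In FBs Hist1h1b read 33.1, 49.6, 30.3 and 39.4 CPM at Day 3, against 0.690, 0.709, 0.472 and 0.445 CPM at Day 0, a log2 fold change of 6.28 ± 0.35 (adjusted p = 5.88e-11 by edgeR). The groups are far apart, and the change was 6.11 without the 8 libraries. Hist1h3c read 20.6, 26.8, 33.3 and 27.1 CPM, against 0.372, 0.452, 0.629 and 0.324 CPM, with a change of 6.15 ± 0.55. Hist1h2ae read 47.4, 28.6, 11.6 and 58.0 CPM, against 0.848, 0.906, 0.861 and 0.692 CPM, with a change of 5.70 ± 0.51. Even the lowest Day 3 library of Hist1h2ae was above every Day 0 library.

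Several FB members depended on which libraries were read. Hist1h2ak, Hist1h2ap and Hist1h4k had 3 or fewer reads in every FB Day 0 library, so no fold is given for them. Hist1h2ad, an H2A gene, had a change of 7.44 ± 1.01, but read 3.68 and 4.79 CPM in replicates 1 and 4 and 29.0 and 36.7 CPM in replicates 2 and 3, and the change was 5.17 without the 8 libraries. Hist1h2ao read 8.69, 0.645, 2.40 and 58.0 CPM at Day 3, against 0.102 to 0.545 CPM at Day 0. Hist1h4a read 37.2, 118, 122 and 44.4 CPM, against 6.58 to 12.3 CPM, with a change of 3.46 ± 0.40, and 2.35 without the 8 libraries. Hist2h2bb, an H2B gene, read 23.3, 0, 0 and 29.5 CPM, against 3.65 to 5.16 CPM at Day 0. Hist1h3e, an H3 gene, read 12.2, 0, 0 and 9.15 CPM and was not called (log2 fold change 1.26 ± 0.55), but was called at 1.94 without the 8 libraries. Among H4 genes, Hist1h4h read 9.86 to 13.8 CPM, against 3.06 to 3.22 CPM, a change of 2.14 ± 0.28.

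**Figure D2:**
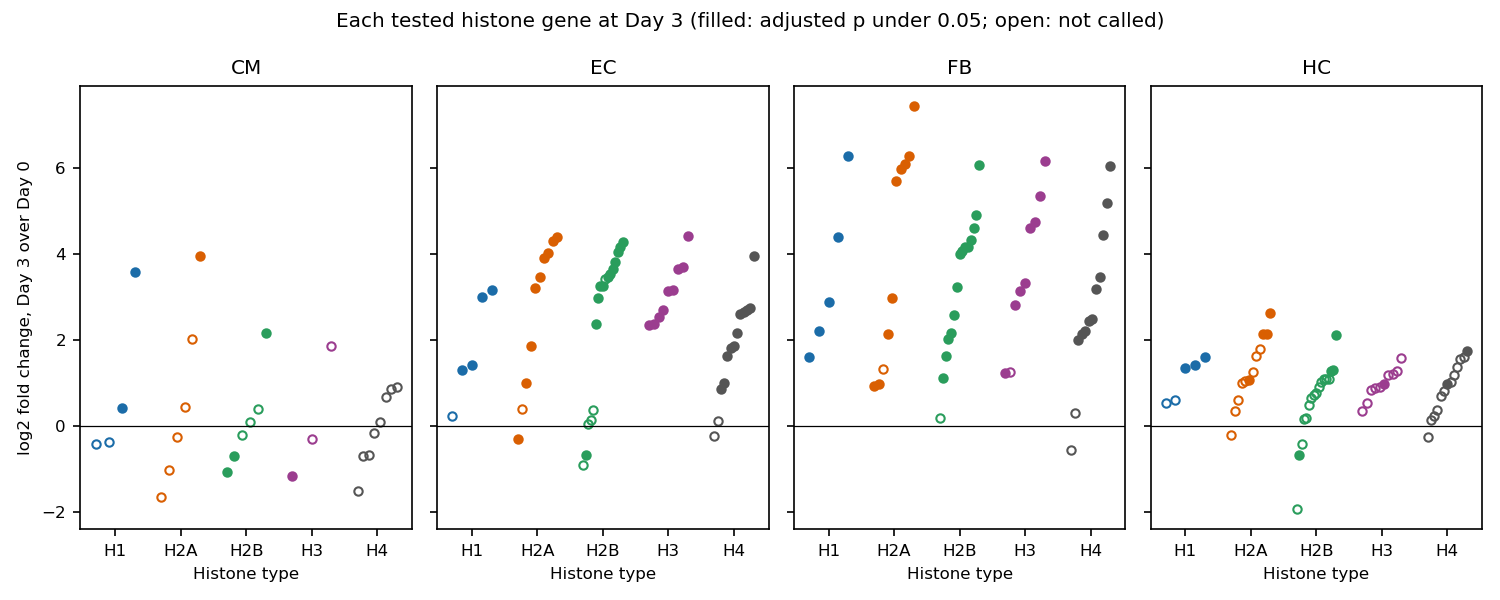
Log2 fold change of each tested histone gene, Day 3 over Day 0, by histone type in the 4 cell types, with filled points for genes called at an adjusted p below 0.05 and open points for the others. Members with 3 or fewer reads in every Day 0 library are not drawn. In ECs and FBs most points are filled and above 0, whereas in HCs most are above 0 but open.

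In HCs, 13 of 57 members rose at Day 3 and 1 fell (23.3% and 23.1% of all genes), so the share called was near that of all genes, while the median log2 fold change was 1.00. At Day 7, 35 rose and no member fell (14.1% and 13.9% of all genes), with a median of 1.57. Without Day 7 replicate 2 the count was 16, while the Day 3 count was 27 without Day 3 replicate 4 and 7 without Day 0 replicate 1. By type, 3 of 5 H1, 8 of 12 H2A, 9 of 17 H2B, 6 of 10 H3 and 9 of 13 H4 genes rose at Day 7. Files of Days 1 and 7 list transcripts and those of the other HC days list genes, so in HCs the kind of file and the day cannot be told apart. At Day 7 HC markers summed to 1844 CPM, against 1138 CPM at Day 0, and CM markers to 417 against 2438 CPM. At Day 1 neutrophil genes summed to 2281 CPM, against 145 CPM at Day 0. The part of these shifts in the histone values was not tested.

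Hist1h2ae read 82.1, 44.9, 47.7 and 92.2 CPM in HCs at Day 3, against 7.47, 14.6, 13.5 and 9.68 CPM at Day 0, a log2 fold change of 2.63 ± 0.58. At Day 7 it read 47.5, 219, 78.5 and 53.6 CPM, a change of 3.03 ± 0.59 (adjusted p = 0.000464 by edgeR). No Day 3 or Day 7 library overlapped Day 0 for this gene. Hist1h1b read 42.8, 27.1, 32.7 and 44.9 CPM at Day 3, against 11.1, 14.2, 20.4 and 15.5 CPM at Day 0, a change of 1.34 ± 0.49, which was no longer called (1.17 to 1.34) without replicate 1, 2 or 4 of Day 0 or replicate 1 or 4 of Day 3. Hist1h1e read 49.6, 33.5, 49.0 and 123 CPM, against 15.4, 23.4, 28.7 and 23.0 CPM, a change of 1.61 ± 0.38. Day 3 replicate 4 was high for Hist1h1e but low for others, for instance Hist1h4a with 43.5, 30.3, 27.9 and 2.10 CPM, against 11.9 to 15.9 CPM, and Hist1h4a was not called.

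In CMs, 5 of 28 tested members rose at Day 3 and 3 fell (16% and 14.6% of all genes), and the median log2 fold change was -0.04. Hist1h1b rose by 3.57 ± 0.59, with 0.995, 4.29, 2.40 and 4.31 CPM at Day 3, against 0, 0.495, 0 and 0.167 CPM at Day 0. HC markers summed to 17.2 CPM in CMs at Day 3, against 0.739 CPM at Day 0, and monocyte and macrophage genes to 163 CPM, against 5.82 CPM. Their part in the result was not tested. Hist1h1a had 3 or fewer reads in each Day 0 library and 0.455 to 1.75 CPM at Day 3. Hist2h2be, an H2B gene, fell by 1.08 ± 0.20 on the log2 scale (adjusted p = 0.000298 by edgeR). Hist1h3e fell by 1.17 ± 0.35, with 1.11 to 1.99 CPM at Day 3, against 1.96 to 3.94 CPM at Day 0, and was not called without Day 0 replicate 2 (-0.96).

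Hist1h1c rose in CMs at Day 1. It read 90.0, 76.7, 111 and 96.9 CPM at Day 1, against 38.3, 43.0, 32.5 and 37.8 CPM at Day 0. The groups do not overlap, and the log2 fold change was 1.13 ± 0.13 (adjusted p = 2.79e-06 by edgeR). Hist1h3e fell by 1.61 ± 0.36. Hist1h2bc, the most abundant member in CMs at 36.1% of the histone CPM at Day 0, averaged 77.1 ± 8.36 CPM at Day 3, against 55.2 ± 8.55 CPM at Day 0 (SD, n = 4 each), but with TMM scaling its change was 0.09 ± 0.16.

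At the other days counts were lower. In CMs, 1 member rose and 2 fell at Day 1 (6.8% and 4.58% of all genes), 2 rose at Day 7 (8.92%, with 4.33% of genes falling), and 1 fell at Day 14 (5.71%, with 8.04% of genes rising). At Day 28 edgeR called no CM member (2.49% of genes rose and 1.09% fell), 3 members had an unadjusted p below 0.05, and DESeq2 called none. At Day 7 relative to Day 3, 2 CM members rose and 2 fell (3.1% and 5.83%).

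In ECs no member rose and 4 fell at Day 1 (9.85% and 9.11% of all genes), among them Hist1h2ab, an H2A gene, with 0.0558 to 0.342 CPM. At Day 7, 31 rose and 1 fell (18% and 19.6%). Hist1h3b had the highest log2 fold change at Day 7 among called members with groups apart and a mean of at least 10 reads. Hist1h1b read 12.1, 23.9, 7.91 and 8.10 CPM at Day 7, above every Day 0 library. At Day 14, 19 rose and 2 fell (12.8% and 14.3%), and at Day 28, 14 rose and 1 fell (16.3% and 17.4%), near the share of all genes. Without the 8 libraries the counts of called members were 17 at Day 7, 6 at Day 14 and 2 at Day 28. Relative to Day 3, 40 members were lower and 1 higher at Day 7 (14.8% and 8.48%).

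In FBs, 33 members rose and no member fell at Day 1 (11.6% and 6.36% of all genes), with a median log2 fold change of 1.96. Hist1h1b read 7.35, 11.1, 7.26 and 5.60 CPM at Day 1, against 0.445 to 0.709 CPM at Day 0, a change of 3.76 ± 0.32. All 4 Day 1 libraries were above Day 0, and Hist1h3c behaved alike with 4.71 to 14.0 CPM, against 0.324 to 0.629 CPM. At Day 7, 18 rose (9.83%, with 4.51% of genes falling), and at Day 14, 8 rose (8.25%, with 2.62% falling). At Day 28 edgeR called no FB member (2.88% of genes rose and 0.606% fell), 2 had an unadjusted p below 0.05, and DESeq2 called 1. Relative to Day 3, 47 members were lower at Day 7 (19.5%, with 16.6% of genes higher).

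In HCs no member rose and 7 fell at Day 1 (18.1% and 23.8% of all genes), with a median of -0.64. At Day 14, 7 rose (6.11%, with 6.8% falling), and at Day 28, 3 rose (11.4%, with 10.4% falling). Relative to Day 3, 5 members were higher at Day 7 and no member lower (11% and 8.82%), and without Day 7 replicate 2 the count was 1. The day with the highest mean CPM was Day 3 for 48 of 56 EC members and 51 of 54 FB members, and Day 7 for 49 of 57 HC members. Without HC Day 7 replicate 2 it was Day 7 for 21 of the 57 HC members and Day 14 for 22. In CMs it was Day 3 for 12 of 28.

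At Day 3, 44 of the 54 members tested in both ECs and FBs rose in both, 13 rose in ECs, FBs and HCs, and 3 rose in all 4 cell types, of 28 tested in all 4. Taken singly, 23.2% of all genes rose in ECs, 25.8% in FBs, 23.3% in HCs and 16% in CMs. The share of all genes that rose in several cell types at once was not counted. The differences between cell types were tested in a joint fit of the Day 0 and Day 3 libraries. Relative to the mean change of the other 3 cell types, 25 of 56 members had a larger change in FBs and none a smaller one (13.2% and 15.2% of all genes). EC changes were larger for 3 members and smaller for none (6.81% and 5.16%). CM changes were smaller for 14 members and larger for none (7.45% and 11.4%), and HC changes were smaller for 14 and larger for none (16.9% and 8.72%). The members larger in FBs held all 5 tested H1 genes, 5 H2A, 4 H2B, 3 H3 and 8 H4 genes. Hist1h1b was larger in FBs by 3.43 ± 0.51 (adjusted p = 8.96e-06 by edgeR). The EC members were Hist1h3e, Hist1h3f and Hist1h3g, and 1 member was called without the 8 libraries. Cell type coincides with library batch, so a level that differs from one cell type to another cannot be told apart from batch, whereas these tests compare changes.

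The 5 members on a list of genes that give polyadenylated RNA in resting cells, chosen with earlier results of these data known, were Hist1h1c, Hist1h2ac, Hist1h2bc, Hist2h2be and Hist3h2a. Their share of all histone reads in ECs was 15.9 ± 1.69% at Day 3, against 47.8 ± 3.43% at Day 0 (SD, n = 4 each). In FBs it was 20.1 ± 2.92% at Day 3, against 43.4 ± 2.98% at Day 0. In HCs it was 18.9 ± 4.55% at Day 7, against 30.2 ± 2.94% at Day 0. In CMs the share was 73.5 ± 8.09% at Day 3 against 72.6 ± 10.2% at Day 0, and 85.4 ± 3.72% at Day 1. ECs and FBs did not overlap between Day 3 and Day 0, while CMs did. At Day 3, 1 of the 5 rose and 2 fell in ECs (median log2 fold change 0.15), 4 rose in FBs (1.11), 1 rose and 1 fell in HCs (0.48), and 1 rose and 1 fell in CMs (0.09). Of all genes tested, 23.2% rose and 22.3% fell in ECs, 25.8% and 23.3% in FBs, 23.3% and 23.1% in HCs, and 16% and 14.6% in CMs, so 1 of 5 is near the share of all genes. The other members had a median of 3.00 in ECs and 3.99 in FBs.

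**Figure D3:**
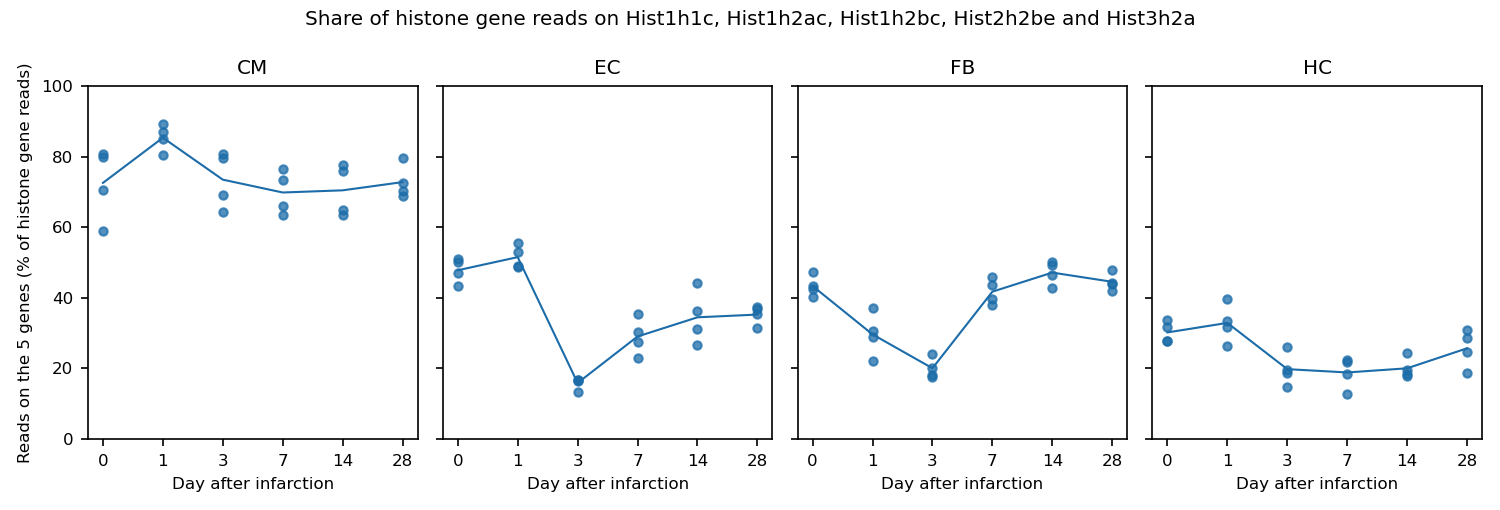
Share of histone gene reads (percent) on Hist1h1c, Hist1h2ac, Hist1h2bc, Hist2h2be and Hist3h2a by day after infarction in the 4 cell types, with libraries as points and the mean as a line. The share is lowest at Day 3 in ECs (15.9%) and FBs (20.1%) and lies between 69.8% and 85.4% in CMs.

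The models differ in how far the annotated RNA runs on past the stem-loop. Models with 200 or more bases past the loop had median log2 fold changes of 1.41 in ECs, 2.14 in FBs and 0.62 in HCs, against 3.60, 4.61 and 1.09 for models with fewer. The limit was chosen after the values were seen, so this is a description without a test. Models with long ends include Hist1h1c (840 bases), Hist1h1e (1153), Hist1h2ac (2010) and Hist3h2a (1643), and short ones Hist1h3b (51), Hist1h2ae (151) and Hist1h4h (46). Members with mostly their own 31-base words had a median of 1.15 in ECs and 2.17 in FBs, against 3.44 and 4.31 for members with mostly shared ones, so these features cannot be told apart.

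**Figure D4:**
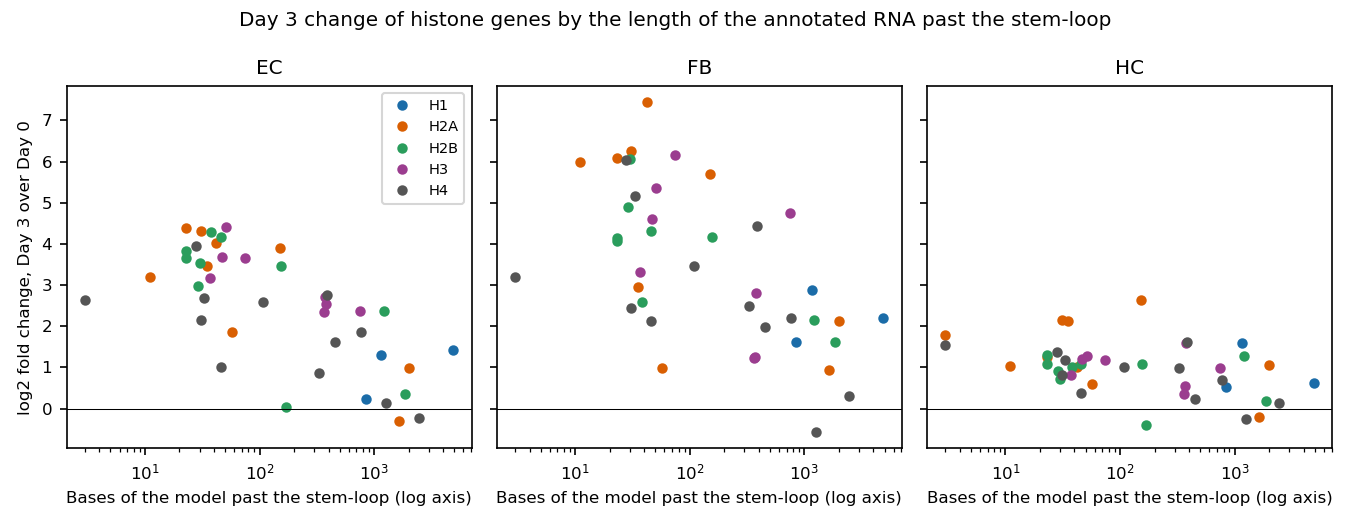
Log2 fold change of histone genes, Day 3 over Day 0, against the number of bases of the annotated model past the stem-loop (log axis), for ECs, FBs and HCs, coloured by type. Members without a stem-loop in their model, and those with 3 or fewer reads in every Day 0 library, are not drawn, and in ECs and FBs models with few bases past the loop lie mostly above those with many.

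Genes that act on histone mRNA and histones were read from lists. Slbp, which binds the stem-loop, rose at Day 3 in CMs (log2 fold change 0.56 ± 0.12, adjusted p = 0.00107 by edgeR) and ECs (0.39 ± 0.11), and was 0.01 ± 0.11 in FBs and 0.19 ± 0.13 in HCs, where it was not called. Of 12 genes of histone mRNA processing, 5 rose in ECs, 3 rose and 1 fell in FBs, 6 rose in HCs, and 1 of 11 tested rose and 1 fell in CMs. The share of all genes that rose was 23.2% in ECs, 25.8% in FBs, 23.3% in HCs and 16% in CMs, so the counts in FBs and CMs were at or below it. Of the chaperones, which carry new histones to DNA, 8 of 11 rose in ECs, 9 rose and 1 fell in FBs, 7 rose in HCs and 3 of 10 rose in CMs, against the same shares of all genes. Asf1b, the chaperone of new H3 and H4, rose by 1.61 in CMs, 2.83 in ECs, 4.00 in FBs and 1.53 in HCs. On a list of 11 replication-independent histone genes, H2afz, which encodes H2A.Z, rose by 0.78, 1.52, 2.06 and 0.97 in the same order of cell types. The 2 highest called changes of the list were those of Cenpa and H2afy2 in FBs, and of H2afy and H2afj in HCs. How many of the 11 genes rose or fell is not given here. H2afz does not stand for the list, as H1f0 fell in CMs. That call was lost (log2 fold change -0.22 to -0.29) without replicate 1 or 3 of Day 0 or replicate 1, 2 or 4 of Day 3.

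Cell cycle genes gave the wider frame. Of 28 DNA replication genes, which include the MCM helicase genes and Rrm2 of nucleotide supply, 27 rose in ECs at Day 3, 25 in FBs, 25 in HCs and 21 of 27 tested in CMs. All 14 mitosis genes rose at Day 3 in each cell type, while 23.2% of all genes rose in ECs, 25.8% in FBs, 23.3% in HCs and 16% in CMs. In CMs the mitosis genes summed to 83.9 ± 16.7 CPM at Day 3, against 4.67 ± 0.175 CPM at Day 0. The mean of histone genes outside the 5-gene list was 1.33 times Day 0. Their CM libraries read 36.1, 81.2, 45.4 and 70.4 CPM at Day 3, against 29.8, 78.7, 23.6 and 43.4 CPM at Day 0. These overlap, Day 0 replicate 2 was the highest of Day 0, and in summed TPM the mean was 2.00 times Day 0. The same CM libraries held 17.2 CPM of HC markers and 163 CPM of monocyte and macrophage genes at Day 3, against 0.739 and 5.82 CPM at Day 0, and their part in the result was not tested. In HCs the mitosis sum was 822 CPM at Day 3 and 627 CPM at Day 7, against 332 CPM at Day 0. Without HC Day 7 replicate 2 the mitosis sum was 434 CPM at Day 7.

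**Figure D5:**
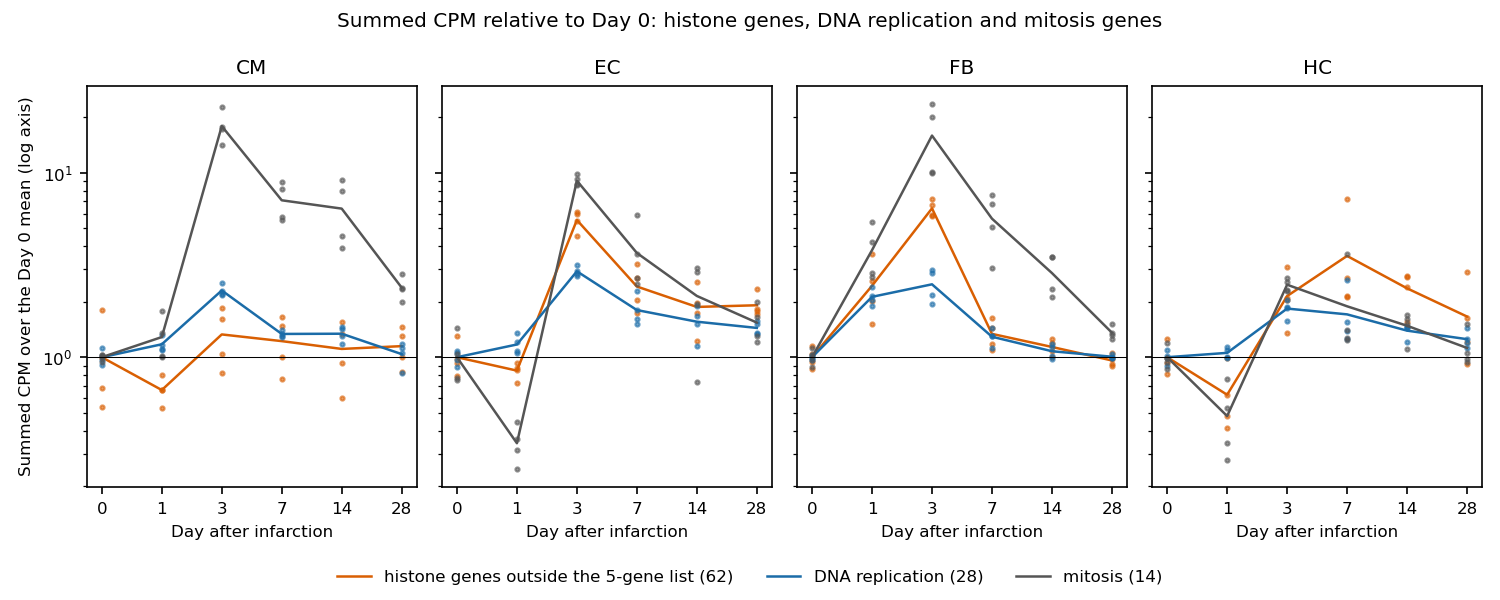
Summed CPM relative to the Day 0 mean (log axis) of the 62 histone genes outside the 5-gene list, 28 DNA replication genes and 14 mitosis genes, by day after infarction, with libraries as points and means as lines. In CMs mitosis genes stand at 17.9 times Day 0 at Day 3 while histone genes stand at 1.33 times, with libraries that overlap those of Day 0. In HCs the mean of the histone genes is highest at Day 7 with replicate 2 included.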

How the data were processed

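The deposited values were estimated counts (expected counts) and TPM per transcript or gene, made by the authors with Trim Galore, STAR 2.28 and Salmon on the mouse genome mm10 (GRCm38) in total RNA libraries of 4 cell types and 6 days. Estimated counts and TPM were summed to 50944 genes listed in every file. No columns of other samples were used. Counts were rounded, and each cell type was fitted over its 24 libraries with edgeR 4.0.16 (R 4.3.3), using TMM scaling, filterByExpr and robust quasi-likelihood, with each day against Day 0 and Day 7 against Day 3. The change to Day 3 was compared between cell types over 32 libraries. Alternatives were DESeq2 1.42.0, DESeq2 size factors, limma 3.58.1 on log2(TPM + 1) with a mean TPM of at least 1, no filter, a replicate block, removal of the 8 libraries with shared transcripts, removal of ribosomal RNA genes, and leaving out each library. The scripts were tested on simulated data. Members and lists were chosen with earlier results of these data known. Named members were the 3 highest in TPM of each type, the highest and lowest called changes with groups apart (4 each way at Day 3, 2 on other days), the listed polyadenylated and testis genes, and up to 4 called genes of each pathway list. Histone read counts of 768 to 53861 per library limit precision. The ± values are SDs between libraries or SEs of the edgeR fit, and the uncertainty of dividing shared reads between members was not modelled. Promoters are from RefSeq GRCm38.p6 and stem-loops from GENCODE M21 transcripts.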

Additional observations from a re-analysis of the deposited data

Results flagged for a closer look

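In HC Day 7 replicate 2 the summed levels stood far from the other 3 libraries: H1 at 416.4 CPM (others 149 to 170), H2A at 533.8 CPM (158 to 217), H2B at 646.9 CPM (206 to 270), H3 at 338.3 CPM (98.1 to 126) and H4 at 590.1 CPM (183 to 227). In HC Day 14 replicate 4 the H1 sum of 127.5 CPM (others 169 to 177) and the H4 sum of 136.1 CPM (212 to 226) stood apart on the low side. In HC Day 0 replicate 3 the H2B sum of 147.4 CPM (105 to 111) stood apart on the high side. Of 120 sums checked, about 1 in 20 would stand apart by chance.

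The change to Day 3 differed from the mean of the other cell types for 25 members in FBs, where all were larger (13.2% of all genes were), for 14 in CMs and 14 in HCs, where all were smaller (7.45% and 16.9% of all genes), and for 3 in ECs, where all were larger (6.81% of all genes), by the joint edgeR fit. The EC share was below that of all genes, and the EC count was 1 without the 8 libraries.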

How the results depend on the processing

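Counts of called members are given here as the alternative's value, with that of the edgeR fit in parentheses. DESeq2 called 5 (3) for CM Day 1, 2 (1) for CM Day 14, 11 (4) for EC Day 1, 13 (8) for FB Day 14, 1 (0) for FB Day 28, 11 (7) for HC Day 1, 11 (7) for HC Day 14, 8 (5) for HC Day 7 relative to Day 3 and 8 (3) for the EC change compared with the other cell types. On log2(TPM + 1), limma called for CMs 0 (3) at Day 1, 0 (8) at Day 3, 0 (2) at Day 7, 0 (1) at Day 14, 0 (4) at Day 7 relative to Day 3 and 9 (14) for the change compared with the other cell types. With a mean TPM of at least 1 required, the CM fit by limma held 3815 genes, against 14535 by edgeR. Members under that level could not be called, and the number of members left in was not counted. On log2(TPM + 1), limma called for ECs 1 (4) at Day 1, 28 (47) at Day 3, 28 (15) at Day 28, 7 (41) at Day 7 relative to Day 3 and 11 (3) for the change compared with the other cell types. Of all genes, limma called 8253 of 10956 higher at EC Day 28, and edgeR 2954 of 18144. At EC Day 3 limma called 1976 of 10956 genes higher, and edgeR 4208 of 18144. On log2(TPM + 1), limma called for FBs 6 (33) at Day 1, 16 (49) at Day 3, 1 (18) at Day 7, 0 (8) at Day 14, 9 (47) at Day 7 relative to Day 3 and 9 (25) for the change compared with the other cell types. Of all genes at FB Day 3, limma called 244 of 11519 higher and 9406 lower. On log2(TPM + 1), limma called for HCs 7 (14) at Day 3, 1 (3) at Day 28, 11 (5) at Day 7 relative to Day 3 and 0 (14) for the change compared with the other cell types. The replicate block gave 10 (3) for CM Day 1, 4 (2) for CM Day 7, 3 (1) for CM Day 14, 2 (0) for CM Day 28 and 7 (4) for CM Day 7 relative to Day 3. Testing with no filter on low counts gave 2 (4) for EC Day 1, 4 (7) for HC Day 1 and 3 (5) for HC Day 7 relative to Day 3. Leaving out the 8 libraries gave 1 (4) for EC Day 1, 17 (32) for EC Day 7, 6 (21) for EC Day 14, 2 (15) for EC Day 28, 16 (8) for FB Day 14, 1 (0) for FB Day 28, 0 (3) for HC Day 28 and 1 (3) for the EC change compared with the other cell types. Summed TPM relative to Day 0, without the 8 libraries, was 0.8195 for EC Day 1, 3.805 for EC Day 3, 2.128 for EC Day 14 and 2.347 for EC Day 28. Summed CPM relative to Day 0 was 3.463 for EC Day 3, 1.771 for EC Day 7, 1.479 for EC Day 14, 1.548 for EC Day 28, 4.562 for FB Day 3, 1.302 for FB Day 7, 1.221 for FB Day 14 and 0.9834 for FB Day 28.

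Some named genes turned their sign on the log2(TPM + 1) scale with limma, and the cause was not tested. For CM Day 3 these log2 fold changes were 0.39 for H1f0. For EC Day 14 these log2 fold changes were 0.62 for Hist1h1e, 0.74 for Hist1h2bc and 0.43 for Hist3h2a. For EC Day 28 these log2 fold changes were 0.88 for Hist1h1e, 0.85 for Hist1h2bc, 0.65 for Hist1h4i and 0.68 for Hist3h2a. For EC Day 3 these log2 fold changes were 0.0403 for Hist3h2a. For EC Day 7 these log2 fold changes were 0.99 for Hist1h2bc and 0.27 for Hist3h2a. For FB Day 3 these log2 fold changes were -0.18 for Cpsf2, -0.69 for H2afj, -0.95 for H2afy, -0.54 for Hist1h1c, -0.32 for Hist1h2bc, -0.50 for Hist1h3f, -0.0122 for Hist1h4c, -0.58 for Hist1h4h, -0.46 for Hist1h4n, -0.67 for Hist2h2bb, -0.52 for Hist3h2a, -0.80 for Pcna, -0.15 for Rrm1, -0.70 for Supt16 and -1.22 for Upf1. The median of all genes on that scale was -1.17 for FB Day 3 and between 0.65 and 0.80 for EC Days 7 to 28. The edgeR medians furthest from 0 were -0.10 for HC Day 1 and -0.12 for the FB change compared with the other cell types. Leaving out 1 library at a time gave counts of 2 to 5 for CM Day 1 (lowest without CM Day 0 replicate 2, highest without CM Day 0 replicate 3), 0 to 2 for CM Day 14 (lowest without CM Day 14 replicate 3, highest without CM Day 0 replicate 2), 0 to 1 for CM Day 28 (lowest without CM Day 0 replicate 1, highest without CM Day 0 replicate 2), 1 to 3 for CM Day 7 (lowest without CM Day 0 replicate 1, highest without CM Day 0 replicate 2) and 1 to 5 for CM Day 7 relative to Day 3 (lowest without CM Day 3 replicate 2). In ECs the counts were 1 to 8 for EC Day 1 (lowest without EC Day 0 replicate 1, highest without EC Day 0 replicate 4), 13 to 22 for EC Day 14 (lowest without EC Day 14 replicate 1), 8 to 18 for EC Day 28 (lowest without EC Day 0 replicate 2), 25 to 42 for EC Day 7 relative to Day 3 (lowest without EC Day 7 replicate 4) and 1 to 6 for the EC change compared with the other cell types (lowest without CM Day 0 replicate 2, highest without FB Day 3 replicate 1). In FBs the counts were 4 to 10 for FB Day 14 (lowest without FB Day 0 replicate 4) and 0 to 1 for FB Day 28 (lowest without FB Day 0 replicate 1, highest without FB Day 3 replicate 2). In HCs the counts were 4 to 11 for HC Day 1 (lowest without HC Day 0 replicate 3, highest without HC Day 0 replicate 1), 3 to 12 for HC Day 14 (lowest without HC Day 0 replicate 1, highest without HC Day 3 replicate 4), 0 to 5 for HC Day 28 (lowest without HC Day 0 replicate 4, highest without HC Day 3 replicate 4), 7 to 27 for HC Day 3 (lowest without HC Day 0 replicate 1, highest without HC Day 3 replicate 4), 16 to 45 for HC Day 7 (lowest without HC Day 7 replicate 2) and 1 to 8 for HC Day 7 relative to Day 3 (lowest without HC Day 7 replicate 2, highest without HC Day 3 replicate 1). Summed TPM over Day 0 ran from 2.542 to 3.36 for EC Day 14, 2.751 to 3.637 for EC Day 28, 4.544 to 6.007 for EC Day 3 and 1.457 to 2.695 for FB Day 3 (lowest without FB Day 3 replicate 1).

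No source says that equal replicate numbers mark shared animals, and the libraries were not treated as pairs. Libraries of 1 cell type at different days came from different hearts, so equal numbers across days cannot mark shared animals. Between days, deviations of same-numbered libraries correlated with a median of 0.15 in CMs, -0.01 in ECs, -0.004 in FBs and 0.04 in HCs. Not every pair was over 0.1 in any cell type. In CMs 43 of 60 same-numbered pairs were over 0.1, against 36 of 180 pairs of different numbers. Of 24 CM libraries, 17 correlated best with their own number (1 in ECs, 5 in FBs and 11 in HCs), and the cause was not tested. Between cell types of a day, which shared animals, the median was 0.01 for same-numbered pairs and -0.0007 for others. There 14 of 32 libraries correlated best with their own number, and the joint fit did not pair them. The block moved the count by over 1.5 times in the CM comparisons given above and in no other. DESeq2 size factors and removal of ribosomal RNA genes moved no count by that much. Of 314 named results that were called, 83 lost the call when some library was left out. In CMs 28 members passed the filter on low counts, and whether depth or level sets this was not tested. The sums and highest days without FB Day 3 replicates 2 and 3, HC Day 3 replicate 4 or HC Day 7 replicate 2 were chosen after seeing the data.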
